A study of Mus musculus with 14 samples.

Results

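The genes described here are 7 markers of homeostatic microglia: Cx3cr1, Tmem119, Selplg, Slco2b1, Olfml3, Serinc3 and Ltc4s. They are listed by name as a group of surface and secreted markers. No measured value enters that list, but it was drawn up with earlier results of these data known. They are 7 of the 47273 genes named in the series-wide table. All 7 had reads in each of the 14 libraries, and all 7 passed the filter on low counts. RNA was sequenced by SMART-Seq2, which copies whole transcripts from few cells, in microglia sorted as CD11b-positive, Ly6c-negative and Fcrls-positive cells, with 1 library per retina. All mice were wild type, of the C57BL/6 strain and aged 12 weeks. The groups were 3 retinas injected with microbeads and described as glaucoma, 3 retinas contralateral to such an injection, 4 retinas with a sham injection and 4 naive retinas. Microbeads are used to obstruct the outflow of fluid from the eye and so to raise its pressure. The labels do not say which retinas came from the same mouse, or how long after injection they were taken, so p-values measure the spread between these retinas.

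Homeostatic microglia are the resting resident macrophages of the nervous system, and in the retina they tile the plexiform layers and survey synapses. Their identity depends on TGF-beta and CSF1 receptor signalling and on the transcription factor PU.1, and in several mouse models of neurodegeneration their surface receptors are known to be expressed less. The 7 markers have unlike roles. Cx3cr1 is the receptor for fractalkine, a chemokine made by neurons. Tmem119 is a single-pass membrane protein used to tell microglia from other macrophages. Selplg encodes PSGL-1, a mucin-like ligand of P-selectin. Slco2b1 is an organic anion transporter, Serinc3 a multi-pass membrane protein of the serine incorporator family, and Olfml3 a secreted glycoprotein with an olfactomedin domain. Ltc4s is leukotriene C4 synthase, an enzyme of the nuclear and endoplasmic reticulum membranes, so the description as surface or secreted is not true of it.

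The libraries held 1.34 to 14 M reads in genes (median 11.5 M). Microbead replicate 1 was the shallowest, with 1.34 M reads in 10167 genes, and contralateral replicate 2 had reads in 10306 genes. The other 12 libraries had reads in 13472 to 16531 genes. Levels below are CPM (reads scaled to a common library total) scaled by TMM factors, and per-length levels are the FPKM the authors deposited. The markers of the sort were read in all groups. Fcrls averaged 725 ± 267 CPM in microbead, 511 ± 238 in contralateral, 625.1 ± 164 in sham, against 704 ± 210 in naive retinas (SD, n = 3, 3, 4 and 4). Itgam, which encodes CD11b, averaged 376 ± 81.2 CPM in microbead, 445 ± 126 in contralateral, 427 ± 88.2 in sham, against 337 ± 41.9 in naive retinas. Ly6c2 had 0 reads in every library. Genes that mark other cells were also read, and their sums were not tested. The summed level of 8 rod genes ranged over 375 to 3455 CPM in microbead, 1759 to 2975 in contralateral, 694 to 1356 in sham, against 199 to 2639 in naive libraries, so that microbead libraries overlapped every other group. The summed level of 8 monocyte genes was 76.8 to 182 CPM in microbead, 2.68 to 53.9 in contralateral, 3.87 to 95.4 in sham, against 2.31 to 13.7 in naive libraries, with Ly6c2 and Chil3 at 0 throughout. Those of microbead libraries overlapped sham and lay above the other groups. The summed level of 7 genes of border-associated macrophages was 134 to 233 CPM in microbead, 716 to 1022 in contralateral, 365 to 581 in sham, against 339 to 488 in naive libraries. In microbead libraries Cd163, Lyve1 and Cbr2 of that list were at 0, and the microbead sums lay below all others. Cbr2 was also at 0 in all contralateral and naive libraries. The sums of 6 genes of Muller glia and astrocytes (238 to 389 CPM in microbead, 235 to 697 in the other libraries) and 6 of endothelium and pericytes (1.41 to 24.7, 1.41 to 56.3) overlapped. The sum of 5 genes of retinal ganglion cells was 4.92 to 28.8 CPM in microbead, 0.38 to 4.73 in contralateral, 2.79 to 9.02 in sham, against 3.525 to 14.9 in naive libraries. The microbead sums lay above contralateral and overlapped sham and naive. Only 1 of these 5 genes, Rbpms, had reads in microbead, contralateral and sham libraries. The 5 neutrophil genes were at 0 in every library. The part of these cells in the results was not tested. In bulk samples, fewer cells of a type and less RNA per cell cannot be told apart.

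In the GENCODE M21 annotation of GRCm38 all 7 genes are protein-coding and lie on the minus strand. Cx3cr1 spans chr9:119901616-120069879, Slco2b1 chr7:99657804-99711340, Olfml3 chr3:103722222-103738001, Serinc3 chr2:163623272-163645131 and Ltc4s chr11:50236461-50238616. Tmem119, at chr5:113793729-113800516, and Selplg, at chr5:113818536-113832644, are neighbours with no coding gene between them and a gap of 18019 bases. Antisense genes overlap the exons of 4 members: by 78 of 4505 exon bases in Cx3cr1, 134 of 3840 in Serinc3 and 268 of 1014 in Ltc4s. In Slco2b1, 2 antisense genes share 471 and 78 of 5958 exon bases. The sources do not say that counting used the strand, so reads from these stretches cannot be assigned to either gene.

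Promoter sequences are shown for 3 members that took different courses in the microbead retinas: Slco2b1 and Cx3cr1, which were low there, and Ltc4s, which was high in 1 microbead library. Each window runs 5′ to 3′ on the gene's strand, from 250 bases before to 50 bases after the start, and comes from RefSeq on GRCm38.p6. The windows are chr7:99711291-99711590 (Slco2b1, the first of its 3 promoters), chr9:120068247-120068546 (Cx3cr1) and chr11:50238483-50238782 (Ltc4s), all on the minus strand. Capitals mark the core motif of PU.1, searched as GAGGAA on both strands.
Slco2b1: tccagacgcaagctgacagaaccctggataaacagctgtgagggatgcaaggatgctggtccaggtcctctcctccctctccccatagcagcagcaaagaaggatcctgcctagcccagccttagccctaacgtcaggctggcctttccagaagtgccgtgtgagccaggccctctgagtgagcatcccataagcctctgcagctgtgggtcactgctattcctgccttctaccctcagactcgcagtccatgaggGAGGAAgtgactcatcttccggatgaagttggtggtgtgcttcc
Cx3cr1: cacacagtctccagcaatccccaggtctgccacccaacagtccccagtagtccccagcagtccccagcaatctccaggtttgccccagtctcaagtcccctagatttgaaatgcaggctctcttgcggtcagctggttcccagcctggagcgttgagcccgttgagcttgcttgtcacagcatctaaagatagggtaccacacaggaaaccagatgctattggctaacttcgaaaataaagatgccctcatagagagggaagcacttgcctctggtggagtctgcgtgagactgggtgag
Ltc4s: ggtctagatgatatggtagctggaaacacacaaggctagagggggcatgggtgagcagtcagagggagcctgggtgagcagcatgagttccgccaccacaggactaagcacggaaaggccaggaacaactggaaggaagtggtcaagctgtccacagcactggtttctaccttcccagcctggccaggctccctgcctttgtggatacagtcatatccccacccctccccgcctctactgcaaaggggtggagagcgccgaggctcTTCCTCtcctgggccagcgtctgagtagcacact
RefSeq promoters were at hand for 5 members, with 7 windows in all. The PU.1 core was found in 4 of the 7 windows, namely the 3 of Slco2b1 and the one of Ltc4s, while 28.3% of all 32851 promoter windows hold it. In Slco2b1 it starts at base 257 of the window shown, and in Ltc4s it lies at base 267 on the other strand. A TATA box, searched as TATAAA on the gene's strand, was found in 0 of the 7 windows and in 8.32% of all windows. A GC box, searched as GGGCGG on both strands, was found in Olfml3 and Serinc3 and in 35.7% of all windows. The palindrome TTGCAA was found in the second promoter of Slco2b1 and in 6.23% of all windows. These matches describe letters only.

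Cx3cr1, the fractalkine receptor, was the most abundant of the 7 by reads in sham and naive retinas and was low in microbead retinas. Its level was 2264, 2106 and 3626 CPM in the 3 microbead retinas, 5363, 5462 and 6072 CPM in the contralateral retinas, 5125, 5822, 4820 and 5658 CPM in the sham retinas, and 3456, 4997, 5300 and 4268 CPM in the naive retinas. All microbead retinas lay below every sham and every contralateral retina, while microbead replicate 3 overlapped naive replicate 1. The log2 fold change was -1.01 ± 0.22 (SE) against sham, where edgeR (quasi-likelihood) gave a Benjamini-Hochberg adjusted p of 0.0745. Against naive it was -0.76 ± 0.22, with an adjusted p of 0.171, and against contralateral -1.08 ± 0.23, with an adjusted p of 0.0761. The difference from sham was thus a level 2.01-fold lower that missed the threshold of 0.05.

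**Figure D1:**
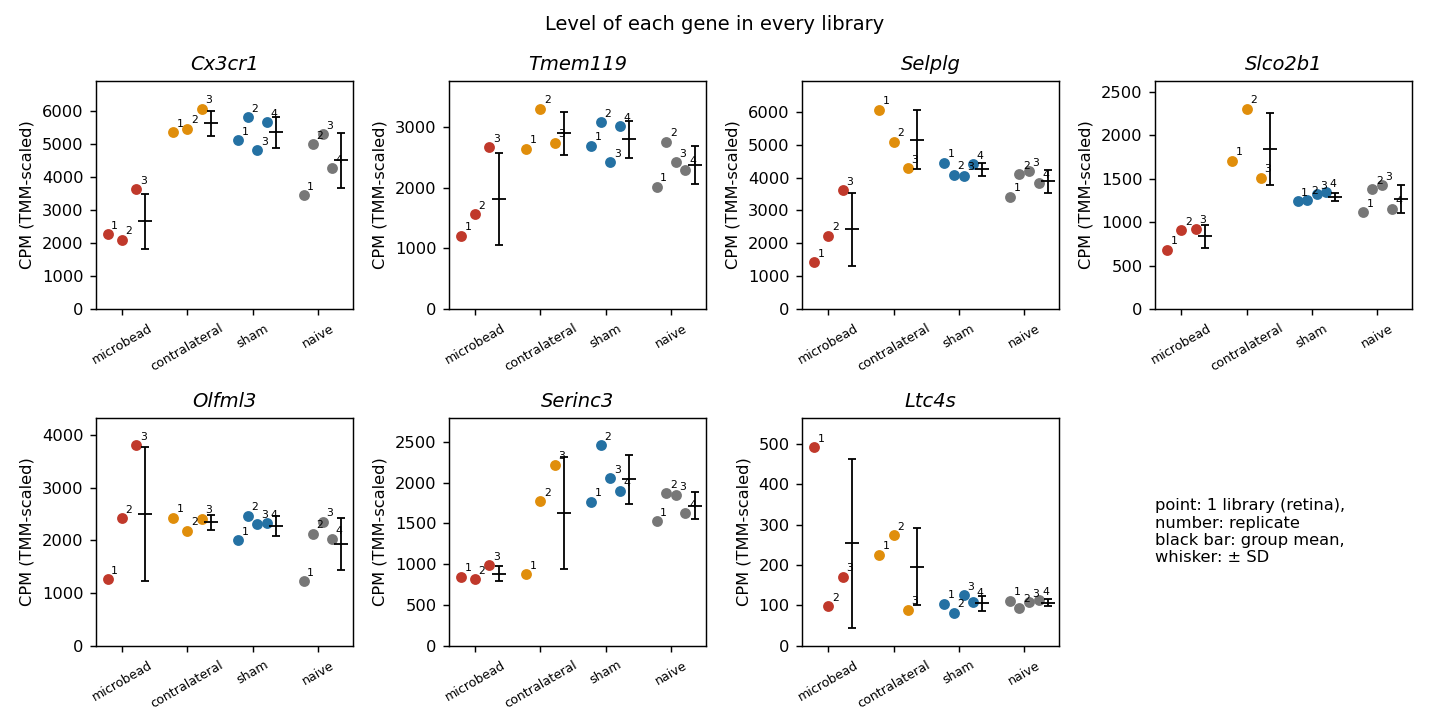
Level of each of the 7 genes in TMM-scaled CPM (vertical axes, from 0) in every library of the microbead, contralateral, sham and naive groups; points are retinas, numbers are replicates, and bars with whiskers are the group mean ± SD. Slco2b1 lay between 683 and 927 CPM in the microbead retinas, below all 11 others, while Olfml3 overlapped and Ltc4s reached 491 CPM in microbead replicate 1 alone.

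Tmem119 showed the same order of groups as Cx3cr1 with a smaller gap. Its level was 1209, 1565 and 2671 CPM in microbead, 2640, 3302 and 2741 CPM in contralateral, 2689, 3082, 2422 and 3011 CPM in sham, and 2014, 2760, 2417 and 2294 CPM in naive retinas. Microbead replicates 1 and 2 lay below all 11 other libraries, and replicate 3 lay within the range of every other group. Its log2 fold change was -0.63 ± 0.24 against sham (adjusted p = 0.425), -0.39 ± 0.24 against naive (0.612) and -0.67 ± 0.26 against contralateral (0.344), by edgeR. Without microbead replicate 3 these values were -1.03 against sham (edgeR adjusted p = 0.0337), -0.79 against naive (0.107) and -1.01 against contralateral (0.0461). Without microbead replicate 1 they were -0.43, -0.19 and -0.41, none of them past the threshold.

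Selplg, the P-selectin ligand, read 1426, 2234 and 3608 CPM in microbead, 6065, 5088 and 4282 CPM in contralateral, 4446, 4087, 4053 and 4397 CPM in sham, and 3412, 4104, 4192 and 3834 CPM in naive retinas. Microbead retinas lay below all sham and contralateral retinas, and microbead replicate 3 overlapped naive replicate 1. The log2 fold change was -0.81 ± 0.25 against sham (edgeR adjusted p = 0.259), -0.68 ± 0.25 against naive (0.345) and -1.09 ± 0.27 against contralateral (0.114). Without microbead replicate 3 Selplg was at -1.23 against sham (edgeR adjusted p = 0.0182) and -1.10 against naive (0.0268), and without microbead replicate 1 at -0.44 against naive (0.613). The transcript length the files give for Selplg was 818 bases in microbead replicate 1 and 1626 to 1835 bases in the other 13 libraries. Per length, microbead replicate 1 stood highest of the 3, with 2539 FPKM beside 1364 and 1975, although it was the lowest by CPM.

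Slco2b1, the organic anion transporter, was by CPM the only one of the 7 whose microbead values lay below those of all 11 other libraries. By FPKM this held for Cx3cr1 and Selplg as well. It read 683, 907 and 927 CPM in microbead, 1710, 2307 and 1514 CPM in contralateral, 1246, 1262, 1324 and 1345 CPM in sham, and 1118, 1379, 1426 and 1152 CPM in naive retinas. By CPM contralateral retinas lay above all sham and naive retinas, so the groups stood in 3 separate levels. By FPKM the contralateral retinas (406 to 473) overlapped the naive ones (301 to 431). Its log2 fold change was -1.14 ± 0.23 against contralateral, the largest difference of any member in that comparison, with an edgeR adjusted p of 0.0645. Against sham it was -0.63 ± 0.21 (adjusted p = 0.337), and against naive -0.60 ± 0.21 (0.333). With each library's trend of level with transcript length removed, these 2 values were -0.17 ± 0.34 and -0.10 ± 0.34.

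Serinc3 gave the lowest fold of the 7 against sham and naive. It read 850, 820 and 989 CPM in microbead, 877, 1774 and 2223 CPM in contralateral, 1767, 2459, 2052 and 1894 CPM in sham, and 1530, 1870, 1850 and 1626 CPM in naive retinas. Microbead retinas lay below every sham and naive retina, and contralateral replicate 1 lay within the microbead range. The log2 fold change was -1.21 ± 0.27 against sham, a level 2.31-fold lower with an edgeR adjusted p of 0.0745. Against naive it was -0.96 ± 0.26 (adjusted p = 0.140), and against contralateral -0.88 ± 0.28 (0.235), which was -0.58 without contralateral replicate 3.

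Olfml3, the secreted member, did not share this course. It read 1260, 2423 and 3802 CPM in microbead, 2427, 2181 and 2408 CPM in contralateral, 2004, 2464, 2316 and 2320 CPM in sham, and 1229, 2127, 2351 and 2016 CPM in naive retinas. The microbead retinas held both the highest of the 14 values and the second lowest, and they overlapped every other group. Its log2 fold change was 0.13 ± 0.29 against sham (edgeR adjusted p = 0.954), 0.37 ± 0.29 against naive (0.719) and 0.09 ± 0.31 against contralateral (0.949). Without microbead replicate 3 each of these values was negative: -0.32 against sham, -0.09 against naive and -0.30 against contralateral.

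Ltc4s was the least abundant member by reads and the shortest transcript, at 640 bases. It read 491, 98.3 and 172 CPM in microbead, 226, 274 and 89.1 CPM in contralateral, 104, 82.0, 126 and 110 CPM in sham, and 111, 94.7, 109 and 113 CPM in naive retinas. Microbead replicate 1 stood above all other libraries, and microbead replicate 2 lay within the sham and naive ranges. The log2 fold change was 1.26 ± 0.46 against sham (edgeR adjusted p = 0.370), 1.24 ± 0.46 against naive (0.345) and 0.37 ± 0.49 against contralateral (0.828). Without the libraries of fewer than 12000 genes, microbead replicate 1 and contralateral replicate 2, the values were 0.33, 0.31 and -0.20.

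In the comparison of microbead with sham, 0 of the 7 members passed the adjusted threshold, against 0.014% of all 14279 genes. At an unadjusted p under 0.05, 5 members were lower and 1 was higher in microbead, against 5.27% and 4.48% of all genes. Among the 185 genes with a mean of at least 500 CPM, 14.6% were lower at that p. For Cx3cr1, Selplg, Slco2b1 and Serinc3, 4 of 7, all microbead libraries lay below all sham libraries, against 7.08% of all genes and 16.2% of the 185 genes with a mean of at least 500 CPM. That level, which 6 of the 7 members reach, was chosen after the data had been seen. The median log2 fold change was -0.63 over the members, -0.12 over all genes and 0.07 over the 185 abundant genes. The members' median was -0.19 with each library's trend of level with transcript length removed and -1.03 without microbead replicate 3, where the median over all genes was 0.04 and -0.37. With other tools the count past the threshold differed, for members and for all genes. The Wald test of DESeq2 called Cx3cr1 and Serinc3, 2 of 7, against 3.3% of all genes. Limma voom called the same 2 members, against 0.637% of all genes. Without the filter on low counts edgeR called 3 members, against 0.542% of 25656 genes. Leaving out microbead replicate 3 gave 3 calls (Cx3cr1, Tmem119 and Selplg), against 0.875% of 15306 genes. Leaving out contralateral replicate 1 gave 1 (Serinc3), against 0.369% of all genes, and leaving out contralateral replicate 3 gave 2 (Cx3cr1 and Serinc3), against 0.348%. Without the libraries of fewer than 12000 genes the log2 fold change was -0.93 for Cx3cr1, -0.43 for Tmem119, -0.57 for Selplg, -0.52 for Slco2b1, 0.42 for Olfml3 and -1.20 for Serinc3, and 0 members passed.

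In the comparison of microbead with naive, 0 of 7 members passed the adjusted threshold, against 0.21% of all genes. At an unadjusted p under 0.05, 4 were lower and 1 was higher in microbead, against 5.81% and 4.72% of all genes. Among the abundant genes 11.4% were lower at that p. The groups did not overlap for Slco2b1 and Serinc3, 2 of 7, against 6.98% of all genes and 9.73% of the abundant genes. The median log2 fold change was -0.60 over the members, -0.14 over all genes and 0.19 over the abundant genes. The members' median was -0.10 with the length trend removed and -0.79 without microbead replicate 3, where that of all genes was 0.02 and -0.41. DESeq2 called Serinc3, against 4.02% of all genes, limma voom called Cx3cr1, against 1.36%, and edgeR without the filter called both, against 0.631%. Leaving out microbead replicate 3 gave 2 calls (Cx3cr1 and Selplg), against 1.1% of all genes, and leaving out contralateral replicate 1 gave 1 (Serinc3), against 0.634%. Without the libraries of fewer than 12000 genes the values were -0.68 for Cx3cr1, -0.19 for Tmem119, -0.44 for Selplg, -0.50 for Slco2b1, 0.66 for Olfml3 and -0.95 for Serinc3, and 0 members passed.

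In the comparison of microbead with contralateral, 0 of 7 members passed the adjusted threshold, against 0.028% of all genes. At an unadjusted p under 0.05, 5 were lower and 0 were higher in microbead, against 6.66% and 4.89% of all genes. Among the abundant genes 18.9% were lower at that p. The groups did not overlap for Cx3cr1, Selplg and Slco2b1, 3 of 7, against 5.64% of all genes and 11.9% of the abundant genes. The median log2 fold change was -0.88 over the members, -0.08 over all genes and -0.05 over the abundant genes. DESeq2 and edgeR without the filter each called Cx3cr1, Selplg and Slco2b1, against 4.66% and 0.612% of all genes, while limma voom called 0 members and 2 genes in all. Leaving out microbead replicate 3 gave 4 calls (Cx3cr1, Tmem119, Selplg and Slco2b1), against 1.06% of all genes, and leaving out contralateral replicate 3 gave 1 (Slco2b1), against 0.368%. Without the libraries of fewer than 12000 genes the values were -1.001 for Cx3cr1, -0.35 for Tmem119, -0.82 for Selplg, -0.81 for Slco2b1, 0.36 for Olfml3 and -0.80 for Serinc3, and 0 members passed. The comparisons with sham, naive and contralateral share the 3 microbead libraries, so they are not independent of each other. The summed level of the 7 genes was 8182, 10150 and 15790 CPM in the microbead libraries, 19310 to 20390 in contralateral, 17110 to 19260 in sham, against 12870 to 17650 in naive libraries. A test of any difference among the 4 groups gave 0 of 7 members past the threshold, against 0.224% of all genes, and the smallest adjusted p was that of Cx3cr1, 0.128.

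Among the retinas without microbeads, contralateral retinas had higher mean levels than naive retinas of 6 members, by less than 1 on the log2 scale. With the length trend of each library removed, 0 members were lower in contralateral retinas. Slco2b1 was then at 1.18 ± 0.33 (edgeR adjusted p = 0.484). In this comparison 0 of 7 members passed the adjusted threshold, as did 0% of all genes, and Slco2b1 alone had an unadjusted p under 0.05. Its log2 fold change was 0.54 ± 0.21, with an edgeR adjusted p of 0.949. At that level 2.9% of all genes were higher and 2.28% lower. Contralateral libraries lay above all naive libraries for Cx3cr1, Selplg and Slco2b1, 3 of 7, against 2.49% of all genes and 7.57% of the abundant genes. On the FPKM scale this held for 0 of the 7, against 2.09% of all genes. In sham against naive retinas 0 of 7 passed, as did 0% of all genes. In both comparisons the count of members past the threshold was 0 under each alternative run, DESeq2 and limma voom included. Between sham and naive log2 fold changes ran from -0.02 for Ltc4s to 0.25 for Cx3cr1 and Serinc3. At an unadjusted p under 0.05, 0 members were lower or higher, against 1.35% and 1.31% of all genes. The groups overlapped for all 7 members there, while 1.37% of all genes lay lower and 1.61% higher without overlap.

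Ordered by mean level, contralateral retinas stood first for Cx3cr1, Tmem119, Selplg and Slco2b1, followed by sham, naive and microbead retinas. The neighbours in this order overlapped, except for Slco2b1, where contralateral stood apart from sham, and naive stood apart from microbead. For Serinc3 the order was sham, naive, contralateral and microbead, with each neighbouring pair overlapping. For Olfml3 it was microbead, contralateral, sham and naive, and for Ltc4s microbead, contralateral, naive and sham, again with each neighbouring pair overlapping.

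In the microbead libraries the levels of genes went with the length of their transcripts. Over 863 genes of at most 1000 bases and 1328 genes of over 4000 bases, the median log2 difference from naive was higher for the short than for the long genes by 1.90, 0.79 and 1.26 in the microbead libraries. It was 0.46, 0.87 and -0.28 in the contralateral, -0.05 to 0.15 in the sham and -0.27 to 0.16 in the naive libraries. The members span this range, with transcripts of 640 bases for Ltc4s, 1693 for Selplg, 2222 for Tmem119, 3246 for Cx3cr1, 3550 for Serinc3, 4172 for Slco2b1 and 4429 for Olfml3. With the length trend of each library removed, the log2 fold change against sham was -0.49 for Cx3cr1, -0.19 for Tmem119, -0.58 for Selplg, -0.17 for Slco2b1, 0.54 for Olfml3, -0.69 for Serinc3 and 0.24 for Ltc4s, with a median over all genes of 0.04. Against naive the values were -0.22, 0.03, -0.50, -0.10, 0.83, -0.41 and 0.22 in the same order of genes, with a median over all genes of 0.02. Against contralateral they were -1.04, -0.76, -1.25, -1.28, 0.02, -0.88 and -0.67, with a median over all genes of -0.18. With the trend removed 5 members stood below 0 against sham, as before, each with a smaller size. Of these, Tmem119 (-0.19 ± 0.31, edgeR adjusted p = 0.912) and Slco2b1 (-0.17 ± 0.34, 0.926) lay within 1 SE of 0. Against naive 4 members stood below 0, Tmem119 lay above it, and Cx3cr1 and Slco2b1 lay within 1 SE of it. Against contralateral 6 stood below 0, the median over the members was -0.88 with and without the trend, and Ltc4s changed sign. In each of the 3 microbead comparisons 0 members passed with the trend removed. In contralateral against naive retinas, the members' median was 0.32 as counted and 0.81 with the trend removed. Over all genes that median was -0.06 and 0.18.

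**Figure D2:**
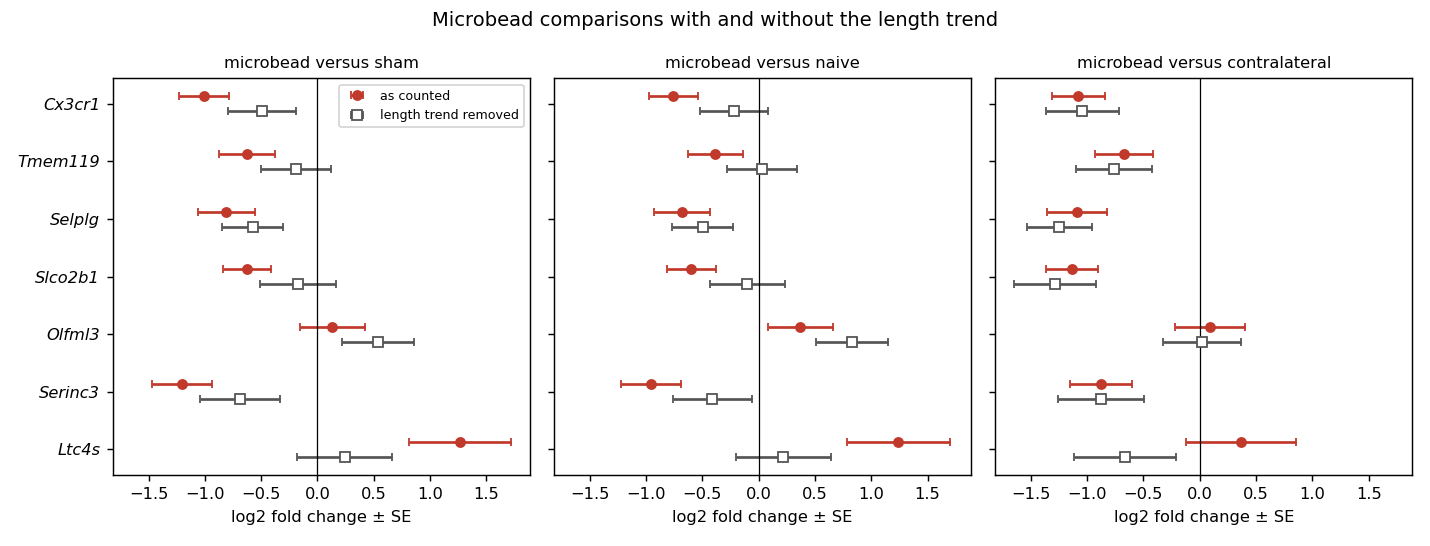
Log2 fold change ± SE (horizontal axes) of each gene in microbead against sham, naive and contralateral retinas, from counts as deposited (red circles) and with the length trend of each library removed (open squares). With the trend removed, Cx3cr1 against sham was -0.49 in place of -1.01 and Ltc4s 0.24 in place of 1.26, while Cx3cr1 against contralateral was -1.04 in place of -1.08.

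Across the 14 libraries, the level of Ltc4s had a Pearson correlation of 0.83 with the short-minus-long difference, and that of Serinc3 and Cx3cr1 -0.77 and -0.71. For Selplg it was -0.65, for Tmem119 -0.58, for Slco2b1 -0.52 and for Olfml3 -0.14. These are descriptions over 14 libraries and the part of the length trend in each difference was not tested beyond its removal.

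**Figure D3:**
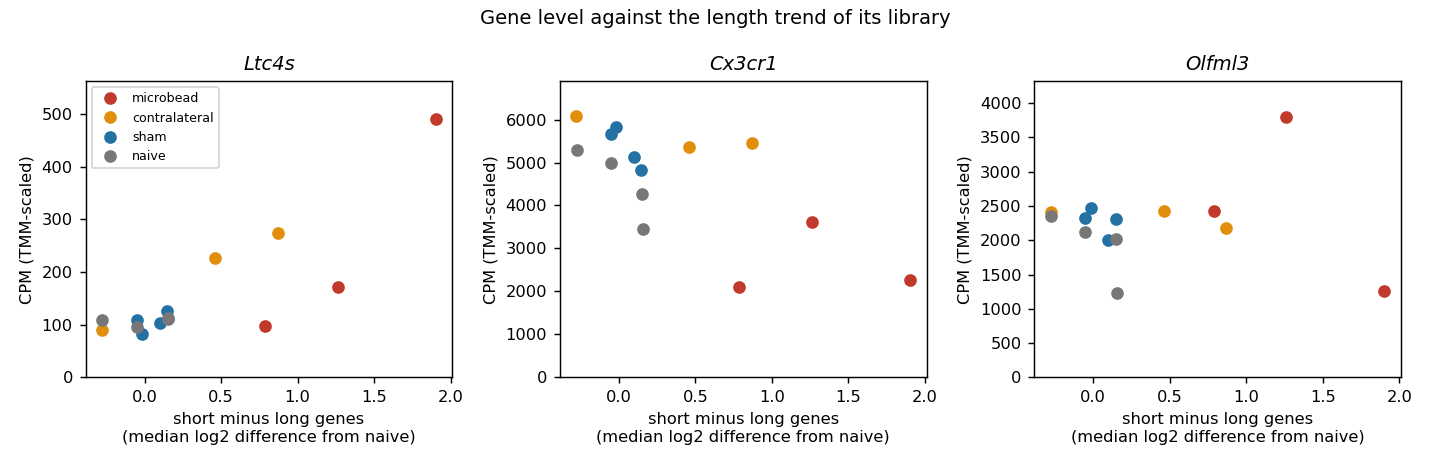
Level of Ltc4s, Cx3cr1 and Olfml3 in TMM-scaled CPM (vertical axes) against the median log2 difference from naive of short minus long genes in the same library (horizontal axes), with 1 point per library coloured by group. The microbead library at 1.90 holds the highest Ltc4s, 491 CPM, while microbead Cx3cr1 lay at 2106 to 3626 CPM across a range of 0.79 to 1.90.

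Per length the members ranked differently from their order by reads. Selplg had the highest FPKM of the 7 in all 14 libraries, 1364 to 2539 in microbead, 2724 to 3363 in contralateral, 2862 to 3334 in sham, against 2614 to 3279 in naive retinas. Cx3cr1 came next in sham and naive retinas, with 1719 to 2143 and 1209 to 2093 FPKM. In microbead retinas Cx3cr1 had 674, 589 and 1008 FPKM and Tmem119 had 642, 675 and 1139, so that Tmem119 stood above Cx3cr1 in replicates 2 and 3. Ltc4s had 1267 FPKM in microbead replicate 1, second after Selplg, and 235 and 396 in replicates 2 and 3. On the FPKM scale all microbead libraries lay below all sham libraries for 5 members, Tmem119 being added to the 4 named above, against 10.7% of all genes. They lay below all naive libraries for Cx3cr1, Selplg, Slco2b1 and Serinc3, against 9.84% of all genes. They lay below all contralateral libraries for Cx3cr1, Tmem119, Selplg and Slco2b1, against 7.21% of all genes.

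Of the ratios of the 6 other members to Cx3cr1 in the same library, 1 separated the microbead libraries from the rest and 5 overlapped. Olfml3 had 0.556, 1.15 and 1.05 reads per read of Cx3cr1 in the microbead libraries, against 0.356 to 0.481 in the other 11. The same separation, in the same direction, was seen for 48.9% of the 184 genes other than Cx3cr1 with at least 500 CPM, so it is not particular to Olfml3. Tmem119 had 0.534, 0.743 and 0.737 reads per read of Cx3cr1 in microbead and 0.451 to 0.605 in the other libraries. The microbead values lay just above those of sham (0.5025 to 0.5322) and overlapped contralateral and naive. Serinc3 had 0.375, 0.389 and 0.273 in microbead and 0.164 to 0.443 in the others, with full overlap. Ltc4s had 0.217, 0.0467 and 0.0474 in microbead and 0.0141 to 0.0501 in the others, so that replicate 1 alone stood outside. Its microbead values lay above those of sham (0.0141 to 0.0261) and naive (0.0190 to 0.0322) and overlapped contralateral. How many other genes separate from single groups in this way was not counted. The ratio of Selplg was 0.63 to 1.06 in microbead and 0.702 to 1.13 in the others, and that of Slco2b1 0.256 to 0.431 and 0.217 to 0.422.

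**Figure D4:**
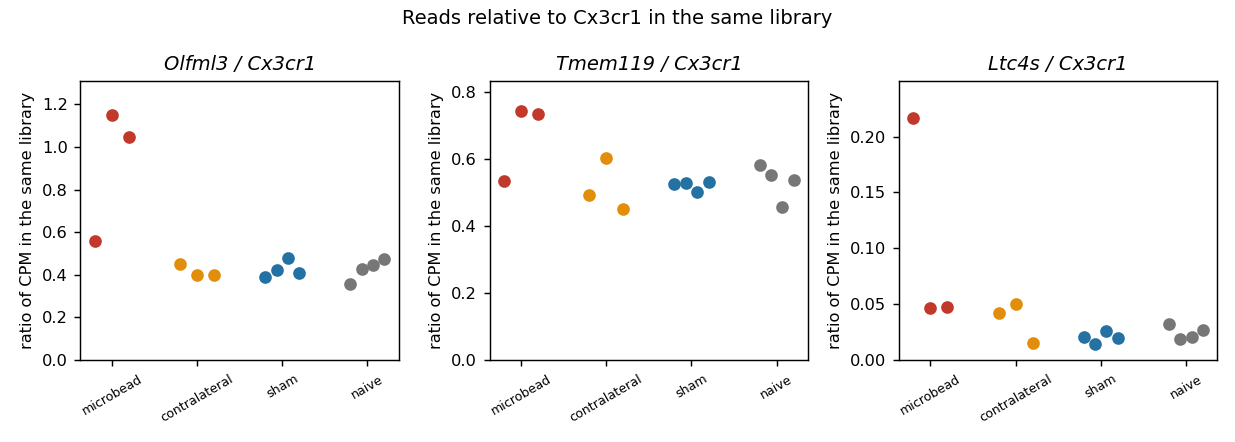
Reads of Olfml3, Tmem119 and Ltc4s relative to reads of Cx3cr1 in the same library (vertical axes, ratio of CPM) in microbead, contralateral, sham and naive retinas, with 1 point per library. Olfml3 per Cx3cr1 was 0.556 to 1.15 in microbead and 0.356 to 0.481 in the other libraries, a separation that 48.9% of 184 abundant genes also showed. The Tmem119 ratio in microbead overlapped contralateral and naive and lay just above sham. The Ltc4s ratio in microbead overlapped contralateral and lay above sham and naive.

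Over the 14 libraries the log2 levels of the 6 members other than Ltc4s were positively correlated in all 15 pairs, with Pearson's r from 0.05 to 0.91. The 6 pairs with Ltc4s were negative, from -0.59 to -0.15. Tmem119 and Selplg, the neighbours on chromosome 5, had the highest r, 0.91, and 0.82 after the group means were removed. Olfml3 and Cx3cr1 had an r of 0.35, and 0.77 after the group means were removed. With group means removed 14 of the 15 pairs were positive, from -0.15 for Selplg and Serinc3 to 0.85 for Selplg and Olfml3, and the 6 pairs with Ltc4s ran from -0.53 to -0.07. These values share library, depth and length trend, and are descriptions.

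Among 8133 other named genes, those most like each member over the 14 libraries were found by the Pearson correlation of log2 CPM. Cx3cr1 was most like Cmtm6 (0.96), Cyb5d2 (0.91) and Csf1r (0.91), the last the receptor on which microglia depend for survival. Cmtm6 averaged 96.1 CPM in microbead, 532 in contralateral, 627 in sham, against 447 in naive retinas. Tmem119 was most like Dusp6 (0.95), Taz (0.94) and Dusp1 (0.94), and Selplg was most like Vsir (0.96), Taz (0.95) and Ppox (0.95). Dusp6 and Dusp1 are phosphatases that switch off MAP kinases, and Vsir encodes VISTA, a binding partner of PSGL-1. Slco2b1 was most like Elmo1 (0.95), which acts in engulfment, Stab1 (0.95), a scavenger receptor, and Mdc1 (0.93). Stab1, which is also on the list of border-associated macrophages, averaged 181 CPM in microbead, 712 in contralateral, 353 in sham, against 369 in naive retinas. Olfml3 was most like Sqstm1 (0.94), C5ar1 (0.92) and Tipin (0.92), the first an autophagy receptor and the second the complement C5a receptor. Serinc3 was most like Gnai3 (0.94), Rp2 (0.93) and its relative Serinc1 (0.89). Ltc4s was most like Svbp (0.92), Rabac1 (0.91) and Nav3 (0.91), with transcripts of 734, 857 and 5350 bases.

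Of 40 other homeostatic microglia genes, all tested, 0 passed the adjusted threshold against sham, naive or contralateral. The fold change in microbead was below 0 for 30, 31 and 32 of the 40, with medians of -0.45, -0.22 and -0.40 on the log2 scale, where 54%, 54.8% and 52.4% of all genes were below 0. The values for these 40 genes are from counts with the length trend left in, and its part in them was not tested. At an unadjusted p under 0.05, 12, 11 and 11 of the 40 were lower, against 5.27%, 5.81% and 6.66% of all genes, and 1, 0 and 0 were higher, against 4.48%, 4.72% and 4.89%. Csf1r averaged 3688 ± 649 CPM in microbead, 6714 ± 547 in contralateral, 6495 ± 661 in sham, against 5789 ± 961 in naive retinas, with a log2 fold change against naive of -0.65 ± 0.20 (edgeR adjusted p = 0.196). Plxdc2, a membrane protein, averaged 445 ± 178 CPM in microbead, 1333 ± 461 in contralateral, 1132 ± 84.1 in sham, against 1007 ± 163 in naive retinas, a log2 fold change against naive of -1.18 ± 0.30 (0.105). Arsb, a lysosomal sulfatase, averaged 216 ± 26.0 CPM in microbead, 565 ± 146 in contralateral, 428 ± 116 in sham, against 465.9 ± 130 in naive retinas (log2 -1.11 ± 0.30, adjusted p = 0.136). Against sham the members lay among these genes, with Serinc3 and Cx3cr1 near the low end and Ltc4s near the high end.

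**Figure D5:**
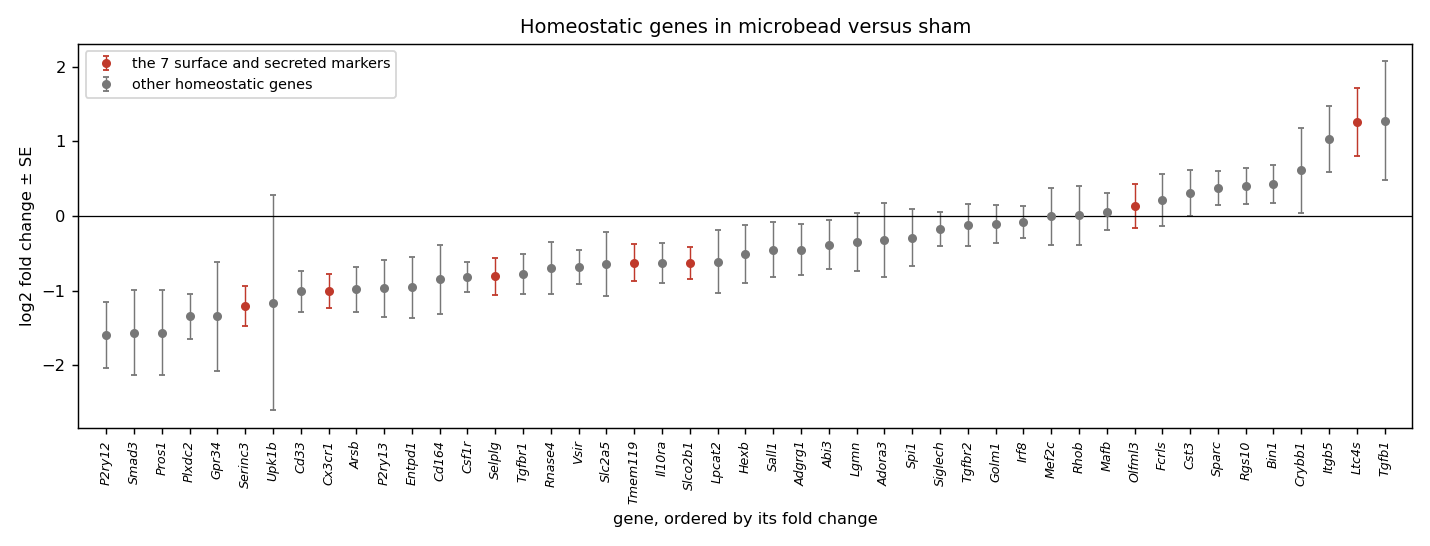
Log2 fold change ± SE (vertical axis) in microbead against sham retinas of the 7 surface and secreted markers (red) and 40 other homeostatic microglia genes (grey), ordered by fold change along the horizontal axis. Of the 40, 30 lay below 0, and of the 7, 5 lay below 0, Serinc3 being the lowest at -1.21 and Ltc4s the highest at 1.26. The length trend was left in.

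The partners of each member gave 0 adjusted calls in any comparison. Values of the partner genes, here and below, are also from counts with the length trend left in. In the fractalkine axis 9 of 10 genes were tested, and the median log2 fold change in microbead was 0.10 against sham, -0.20 against naive and -0.37 against contralateral. Adam17, a protease that sheds fractalkine, averaged 56.2 ± 9.60 CPM in microbead, 126 ± 55.5 in contralateral, 132 ± 22.4 in sham, against 139 ± 33.5 in naive retinas, a log2 fold change against naive of -1.30 ± 0.39 (edgeR adjusted p = 0.183). Gnai3, an inhibitory G protein subunit, averaged 7.90 ± 7.39 CPM in microbead, 54.1 ± 46.6 in contralateral, 67.7 ± 26.8 in sham, against 36.7 ± 7.31 in naive retinas. Ctss, a protease that also releases fractalkine, went the other way and averaged 10800 ± 4391 CPM in microbead, 5558 ± 2313 in contralateral, 7228 ± 632 in sham, against 5759 ± 1289 in naive retinas, a log2 fold change against naive of 0.91 ± 0.29 (adjusted p = 0.248). So did Gnai2, a more abundant inhibitory G protein subunit than Gnai3. Gnai2 averaged 298 ± 137 CPM in microbead, 234 ± 103 in contralateral, 142.5 ± 25.7 in sham, against 181 ± 66.9 in naive retinas. Its log2 fold change was 1.06 ± 0.39 against sham (edgeR adjusted p = 0.3885) and 0.72 ± 0.39 against naive (0.530).

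Of the selectin ligand axis, with the glycosyltransferases that decorate PSGL-1, 11 of 15 genes were tested. The median log2 fold change in microbead was -0.75 against sham, -0.52 against naive and -0.94 against contralateral, and 5, 3 and 4 of the 11 genes were lower at an unadjusted p under 0.05, against 5.27%, 5.81% and 6.66% of all genes. Vsir is counted both here and among the 40 homeostatic genes. Gcnt1, which builds the branched O-glycan core, averaged 92.1 ± 30.02 CPM in microbead, 130 ± 8.53 in contralateral, 186 ± 17.9 in sham, against 166 ± 17.0 in naive retinas. Vsir averaged 953 ± 258 CPM in microbead, 2014 ± 489 in contralateral, 1537 ± 95.9 in sham, against 1477 ± 151 in naive retinas, with a log2 fold change of -0.69 ± 0.23 against sham (edgeR adjusted p = 0.313), -0.63 ± 0.23 against naive (0.334) and -1.08 ± 0.24 against contralateral (0.0845). St3gal4, a sialyltransferase, averaged 0.125 ± 0.132 CPM in microbead, 4.92 ± 5.81 in contralateral, 9.74 ± 10.5 in sham, against 12.9 ± 11.5 in naive retinas, with a spread as large as the mean.

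Of the genes of leukotriene synthesis and reception, 10 of 17 were tested, with medians of -0.51 against sham, -0.75 against naive and -0.54 against contralateral, below 0 in each. Ltc4s itself was above 0 against sham and naive. Against contralateral it was at 0.37, but at -0.67 with the length trend removed, -0.20 without the libraries of fewer than 12000 genes and -0.48 without microbead replicate 1. Alox5, which makes the substrate of Ltc4s, averaged 29.8 ± 27.9 CPM in microbead, 104 ± 20.8 in contralateral, 40.7 ± 9.37 in sham, against 62.5 ± 7.45 in naive retinas. Ggt5, which processes leukotriene C4, averaged 71.1 ± 24.3 CPM in microbead, 86.0 ± 41.8 in contralateral, 44.5 ± 19.6 in sham, against 40.1 ± 10.7 in naive retinas. Mgst1 averaged 0 CPM in microbead and 0.512 ± 0.886 in contralateral, 0.913 ± 1.83 in sham, against 2.16 ± 4.16 in naive retinas. For these 3 genes the edgeR adjusted p against naive was 0.510, 0.597 and 0.513.

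Few relatives of the other members were detectable. Of 12 other organic anion transporters, Slco4a1 was the one tested, and it averaged 70.7 ± 17.3 CPM in microbead, 61.4 ± 20.3 in contralateral, 27.9 ± 3.24 in sham, against 30.2 ± 12.98 in naive retinas. Its log2 fold change was 1.34 ± 0.52 against sham and 1.23 ± 0.52 against naive (edgeR adjusted p = 0.425 and 0.427), opposite in sign to that of Slco2b1. Of 4 other serine incorporators 3 were tested. Serinc1 averaged 106 ± 47.5 CPM in microbead, 169 ± 81.2 in contralateral, 236 ± 13.2 in sham, against 153 ± 35.9 in naive retinas, with a log2 fold change of -1.15 ± 0.38 against sham (edgeR adjusted p = 0.317), -0.52 ± 0.38 against naive (0.679) and -0.67 ± 0.40 against contralateral (0.522). Serinc5 had 0 CPM in microbead and averaged 2.52 ± 4.36 in contralateral, 3.64 ± 3.4 in sham, against 6.28 ± 7.997 in naive retinas, and Serinc4 stayed between 1.11 and 2.01 CPM on average in every group. Of 8 other olfactomedin genes 3 were tested. Olfml2b averaged 21.2 ± 4.39 CPM in microbead, 47.2 ± 44.0 in contralateral, 40.3 ± 20.9 in sham, against 22.7 ± 26.3 in naive retinas. Olfm2 stayed at 0.446 to 2.06 CPM on average. Olfm4 was at 0 CPM in microbead and averaged 2.60 ± 4.51 in contralateral, 16.9 ± 10.5 in sham, against 7.19 ± 7.56 in naive retinas.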

How the data were processed

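The data are 14 SMART-Seq2 libraries of sorted retinal microglia, 1 per retina. Per the file headers the deposited table of each library gives expected counts, which are estimated reads per gene, scaled to neither depth nor length. It also holds columns named FPKM and TPM per the file headers, units scaled by the authors for length and depth, and a transcript length per gene. The authors' series-wide table repeats the FPKM for 47273 of the 47729 identifiers. The submitters' processing notes list mm10, DESeq2 1.30.1, R 4.0.3 and Salmon 1.4.0 without roles. The writing tool is not stated in these sources.

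Rounded expected counts went into edgeR 4.0.16 (R 4.3.3). Of all genes, 14279 passed filterByExpr (groups given, minimum count 10), and TMM scaled the library sizes. A robust quasi-likelihood model of the 4 groups, without covariates, covered all libraries (10 residual degrees of freedom). Two-sided p-values of glmQLFTest were adjusted by Benjamini-Hochberg across the 14279 genes, and 0.05 was the threshold. Levels are TMM-scaled CPM, as mean ± SD over libraries, and SE is the log2 fold change over the root of F. The procedure was tested on simulated data. Replicate numbers were treated as names. The length trend removed from each library is a lowess fit (span 0.5) by log2 transcript length. It was fitted to each gene's log2 CPM minus its mean over the libraries, for genes with a mean of at least 10 CPM. Promoters and motifs were read from a RefSeq table.

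Members, gene lists, tests and alternatives were chosen with earlier results of these data known. The rule for named genes took all 7 members, from each list the genes past the threshold and up to 3 with the smallest p in microbead against naive, and for each member the 3 most correlated genes of at least 10 CPM, predicted genes left out. Gnai2 was named outside this rule, beside Gnai3. Alternatives were DESeq2 size factors, no filter, a filter of 50 reads, the DESeq2 1.42.0 Wald test, limma 3.58.1 voom with quality weights, fits of only the groups compared, a block for the replicate number, the length trend removed, libraries under 12000 genes left out, identifiers of the series-wide table alone, and each library left out. Identifiers were joined to GENCODE M21, where Cx3cr1 and Ltc4s carry a later version.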

Additional observations from a re-analysis of the deposited data

How the results depend on the processing

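The count of members past the threshold was 0 of 7 in every comparison as reported. Without the filter on low counts it was 3 against sham, 2 against naive, 3 against contralateral and 3 in the test of any difference among the groups. With the Wald test of DESeq2 it was 2, 1 and 3 in the comparisons with sham, naive and contralateral. With limma voom it was 2 and 1 against sham and naive and 1 in the test of any difference. Leaving out each library in turn gave 0 to 3 against sham, 0 to 2 against naive, 0 to 4 against contralateral, 0 to 0 for contralateral and for sham against naive, and 0 to 2 for any difference. The other alternatives gave 0, and the cause of the differences was not tested. Over all genes the count against sham was 2, with 0 to 134 over libraries left out and 0 to 471 over the other settings. Against naive it was 30, with 0 to 168 and 1 to 574, and against contralateral 4, with 0 to 162 and 0 to 666. Of 840 member values under alternatives, 794 kept direction and side of the threshold, 31 passed it and 15 changed sign. The sign changes were in values near 0 or in Olfml3 and Ltc4s, save those given for Tmem119 and Serinc3. Slco2b1 in sham against naive was -0.0338 with voom, -0.0298 without naive replicate 1 and -0.0148 without naive replicate 4, with a range of -0.0298 to 0.0899 over libraries left out. Ltc4s there was 0.0784 without sham replicate 2 and 0.0054 without naive replicate 4 (range -0.1201 to 0.0784). Olfml3 without microbead replicate 3 was -0.324 against sham, -0.0866 against naive and -0.3001 against contralateral, the low ends of ranges that reach 0.4243, 0.6607 and 0.4465 without microbead replicate 1. Ltc4s against contralateral was -0.6661 with the length trend removed, -0.2029 without the libraries under 12000 genes and -0.4767 without microbead replicate 1 (range to 0.8224, without microbead replicate 2). Tmem119 against naive was 0.0279 with the length trend removed. Serinc3 in contralateral against naive was 0.467 with it removed and 0.1666 without contralateral replicate 1 (range from -0.3779). With the replicate number as a block, 0 members passed in any comparison, and Olfml3 against contralateral was -0.0282. Whether same-numbered retinas share a mouse is not in the labels. Of 19 same-numbered pairs, 3 had a correlation of deviations from the group means above 0.1 (range -0.0465 to 0.1404). For microbead and contralateral retinas of the same number it was 0.0229, -0.0465 and 0.121. With 3 or 4 libraries per group these values cannot decide whether samples were paired. Depth was lowest for Ltc4s, with 684 to 1954 reads per library; how far depth limits it was not tested.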
